A study of Rattus norvegicus with 18 samples.

Results

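Antioxidant defence in the heart was followed through 6 genes chosen by name through their rat Ensembl IDs: Sod1 (ENSRNOG00000002115), Sod2 (ENSRNOG00000019048), Cat (ENSRNOG00000008364), Gclc (ENSRNOG00000006302), Nqo1 (ENSRNOG00000012772) and Hmox1 (ENSRNOG00000014117). All 6 were among the 30560 genes of the count table, and all 6 were among the 17009 genes with enough counts to test. The samples were hearts of male Wistar rats aged 3 weeks that had been exposed before birth to vehicle (7 animals), to cannabidiol at 3 mg/kg/day (CBD3, 6 animals) or to cannabidiol at 30 mg/kg/day (CBD30, 5 animals). Cannabidiol is a cannabinoid of the cannabis plant that does not intoxicate. The labels name no genotype beyond the Wistar strain, and neither the route nor the days of dosing. Which offspring shared a dam is not stated, so p-values measure the spread between these samples, which may include littermates. Whole hearts were sequenced, so that fewer cells of a type and less RNA per cell cannot be told apart. The deposited table names genes by ID alone. The pairing of each ID with its symbol was taken as given with the selection, since 0 of the 47357 genes in the reference table carry an Ensembl ID, and heart marker genes and the other genes of the pathway were not analysed here for the same reason.

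Superoxide, which leaks from mitochondrial respiration, is converted to hydrogen peroxide by the superoxide dismutases, the copper-zinc enzyme Sod1 in the cytosol and the manganese enzyme Sod2 in mitochondria. Hydrogen peroxide is then broken down by catalase (Cat), largely in peroxisomes, and by peroxidases that draw on glutathione, whose synthesis is limited by glutamate-cysteine ligase with its catalytic subunit Gclc. Nqo1, a quinone reductase, and Hmox1, the inducible haem oxygenase, are textbook targets of the transcription factor NRF2, which binds the antioxidant response element after oxidative or electrophilic stress, and Gclc is regulated by it as well. In the build GRCr8, RefSeq places Sod1 on chromosome 11, Sod2 on chromosome 1, Cat on chromosome 3, Gclc on chromosome 8, and Nqo1 and Hmox1 on chromosome 19.

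The DNA just upstream of 4 of the genes is shown because the results below turn on them: Cat for its spread and its values after CBD30, Sod2 for the heart that was low together with Cat, and Sod1 and Nqo1 for their covariation with Gclc. The sequences are RefSeq's in GRCr8, where 5 of the 6 genes were matched by symbol, and not in mRatBN7.2, the build named for the counts. Capitals mark exact matches on either strand to the antioxidant response element core TGACNNNGC, the GC box GGGCGG, the CCAAT box and the TATAAA motif. The stretches lie on the minus strand at chr3:110329527-110329776 (Cat), chr1:50050169-50050418 (Sod2) and chr19:52220268-52220517 (Nqo1), each of 250 bases up to the start site, and on the plus strand at chr11:42942573-42942741 (Sod1), 169 bases up to the start of the annotated gene.
Cat: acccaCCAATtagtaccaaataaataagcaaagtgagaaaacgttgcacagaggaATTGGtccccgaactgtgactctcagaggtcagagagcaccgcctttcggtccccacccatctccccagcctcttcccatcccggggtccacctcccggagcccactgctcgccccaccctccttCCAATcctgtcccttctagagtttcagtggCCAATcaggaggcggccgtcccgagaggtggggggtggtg
Sod2: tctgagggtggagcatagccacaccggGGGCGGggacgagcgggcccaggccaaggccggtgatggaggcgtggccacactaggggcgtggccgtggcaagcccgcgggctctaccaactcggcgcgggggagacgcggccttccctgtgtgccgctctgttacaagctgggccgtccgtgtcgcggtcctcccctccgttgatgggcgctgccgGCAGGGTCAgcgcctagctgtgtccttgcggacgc
Sod1: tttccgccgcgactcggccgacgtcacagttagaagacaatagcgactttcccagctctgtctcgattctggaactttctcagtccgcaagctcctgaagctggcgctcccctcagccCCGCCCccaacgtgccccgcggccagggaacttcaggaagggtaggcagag
Nqo1: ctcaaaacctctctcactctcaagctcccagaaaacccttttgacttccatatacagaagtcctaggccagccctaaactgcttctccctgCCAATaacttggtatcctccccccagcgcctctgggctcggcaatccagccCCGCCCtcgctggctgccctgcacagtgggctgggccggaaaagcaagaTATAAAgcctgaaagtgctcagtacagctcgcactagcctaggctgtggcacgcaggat
Cat held 4 CCAAT matches and no TATAAA match in its stretch. Sod2 held 1 antioxidant response element core, 35 bases before the start site, and 1 GC box, and the base composition of its stretch was 71.6% G and C. Sod1 held 1 GC box, and Nqo1 held 1 GC box, 1 CCAAT match and 1 TATAAA match. No sequence was at hand for Hmox1, and for Gclc only 25 bases lay outside the annotated gene. DNA farther upstream than 250 bases was not searched for any gene. Of 33469 rat promoters, over the 250 bases before the start site, 10.1% held the antioxidant response element core, 30.5% the GC box, 34.0% the CCAAT box and 12.9% TATAAA. A match is a run of letters and not evidence of a bound factor.

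Vehicle libraries had totals of 44321480 to 80451013 counts, CBD3 libraries of 56992503 to 89240727 and CBD30 libraries of 44127009 to 82220752. Sample codes have the form 3.2 and are not explained by the labels. The 9 libraries whose code ends in digit 1 (4 vehicle, 3 CBD3, 2 CBD30) had totals of 63672078 to 89240727, and the 9 ending in digit 2 (3 of each group) of 44127009 to 67302419. Results are therefore also given within each set. The labels do not say that the digit is a batch. The 4 vehicle samples ending in digit 1 have no certain replicate number and are named by their code. Levels are CPM, counts as a rate of the library total after scaling by the TMM method. They are not corrected for gene length and are not compared between genes.

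The superoxide dismutases showed small differences between the groups. Sod1 was lowest at 151 CPM, had a median of 218 and was highest at 282 in vehicle hearts, with 177, 223 and 249.96 CPM in CBD3 hearts. The 5 CBD30 hearts had 214, 312, 249.6, 218 and 173 CPM. The highest heart was CBD30 replicate 2, and the ranges of the 3 groups overlapped. Sod1 averaged 233 ± 51.6 CPM in CBD30 hearts and 208 ± 48.9 CPM in vehicle hearts (SD, n = 5 and 7). The log2 fold change was 0.16 ± 0.16 (SE, edgeR adjusted p = 0.602). The mean in CBD3 hearts was 217 ± 27.5 CPM (SD, n = 6), 0.058 ± 0.15 above vehicle on the log2 scale (SE, edgeR adjusted p = 0.884).

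The estimates for Sod1 had opposite signs in the sets of codes. A model with dose and digit gave log2 fold changes over vehicle of 0.52 ± 0.20 for CBD30 and 0.38 ± 0.18 for CBD3 (SE) among samples of digit 1. Among samples of digit 2 they were -0.18 ± 0.19 for CBD30 and -0.31 ± 0.19 for CBD3. In digit 2 the 3 CBD3 hearts had 194, 214 and 177 CPM, all below the 3 vehicle hearts at 282, 227 and 218 CPM, as was so for 5.33% of all genes. The difference between the sets was 0.70 ± 0.28 on the log2 scale for CBD30 (SE, edgeR interaction, unadjusted p = 0.0232, adjusted p = 0.376) and 0.70 ± 0.26 for CBD3 (unadjusted p = 0.0177, adjusted p = 0.532). Of all genes, 12.9% had an unadjusted p under 0.05 in that interaction for CBD30 and 9.02% for CBD3. The difference did not pass the adjusted threshold for either dose. The vehicle samples coded 1.1 and 2.1 had the lowest Sod1 of all hearts, 151 and 153 CPM, and were also the lowest on the first principal component of all genes, with scores of -57.9 and -65.0. CBD30 replicate 2 had the highest Sod1 and the highest score, 65.5. Without CBD30 replicate 2 the log2 fold change of Sod1 for CBD30 was 0.036, and without the vehicle samples coded 1.1 or 2.1 in turn it was 0.097 and 0.099. For CBD3 it was -0.0079 and -0.0054 without those vehicle samples in turn.

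Sod2 was 350.4 CPM at the lowest, 434 at the median and 532 at the highest in vehicle hearts. CBD3 hearts had 277, 412 and 439 CPM at the lowest, median and highest, and the 5 CBD30 hearts had 409.8, 353, 448, 406 and 333 CPM. The 3 groups overlapped. Sod2 averaged 389.7 ± 46.6 CPM in CBD30 hearts and 439.7 ± 59.0 CPM in vehicle hearts (SD, n = 5 and 7), or -0.17 ± 0.12 as a log2 fold change (SE, edgeR adjusted p = 0.462). CBD3 hearts averaged 393 ± 59.7 CPM (SD, n = 6), and their log2 fold change over vehicle was -0.16 ± 0.11 (SE, edgeR adjusted p = 0.589). As folds over vehicle, the 95% intervals ran from 0.745 to 1.056 for CBD30 and from 0.757 to 1.05 for CBD3. CBD3 replicate 6, at 277 CPM, was the lowest heart of all groups, and without it the log2 fold change for CBD3 was -0.080 (edgeR adjusted p = 0.788). The model with dose and digit gave -0.17 ± 0.19 in digit 1 and -0.20 ± 0.18 in digit 2 for CBD30, and -0.068 ± 0.17 in digit 1 and -0.27 ± 0.18 in digit 2 for CBD3 (SE, edgeR interaction, adjusted p = 0.959 and 0.732). A pseudogene named after the gene, Sod2-ps1 on chromosome 5, is annotated in the reference table, and how reads shared with it were counted is not known here.

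Catalase was the most variable of the 6 genes, and the one with the largest differences between the doses and vehicle. Vehicle hearts had 95.2 CPM at the lowest, 182 at the median and 277 at the highest, and CBD3 hearts had 58.6, 136 and 150.3 CPM. The 5 CBD30 hearts had 166, 120.3, 73.0, 83.6 and 69.6 CPM. All 5 CBD30 hearts and all 6 CBD3 hearts lay below the vehicle median, and the share of all genes with such counts is not given here. That median was the value of vehicle replicate 6, a digit 2 heart. Within digit 1, all 3 CBD3 hearts lay above the vehicle median of that set, as did 1 of the 2 CBD30 hearts. Over both sets, 3 CBD30 hearts and 1 CBD3 heart lay below the lowest vehicle heart, and the ranges overlapped. Cat averaged 103 ± 41.0 CPM in CBD30 hearts and 179.5 ± 70.6 CPM in vehicle hearts (SD, n = 5 and 7). That was a log2 fold change of -0.81 ± 0.29 (SE), or a fold of 0.572 with a 95% interval of 0.377 to 0.867. The unadjusted p was 0.0111 and the adjusted p over all genes 0.211 (edgeR), so that the difference did not pass the threshold. The exact two-sided permutation p for the mean log2 CPM was 0.0391, unadjusted, with hearts of both code digits shuffled together. For Cat the same test gave 0.152 for CBD3 against vehicle and 0.348 between the doses. For each of the other genes it gave 0.146 or more in every comparison. It was not run over all genes, so no share stands beside it. DESeq2 and limma voom gave adjusted p-values of 0.115 and 0.199, and leaving out each of the 18 samples gave edgeR adjusted p-values of 0.0947 to 0.466.

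In CBD3 hearts Cat averaged 126 ± 34.3 CPM, against 179.5 ± 70.6 CPM in vehicle hearts (SD, n = 6 and 7). The log2 fold change was -0.51 ± 0.27 (SE, edgeR unadjusted p = 0.0753, adjusted p = 0.552). Between the doses, CBD30 over CBD3, it was -0.30 ± 0.29 (SE, edgeR adjusted p = 0.999), with a 95% interval of -0.91 to 0.31. Over both sets of codes the order of the means was vehicle, CBD3 and CBD30 from high to low. Neither vehicle and CBD3 nor CBD3 and CBD30, the neighbours in that order, differed beyond their spread. Within digit 1 the means of vehicle, CBD3 and CBD30 rose, at 133, 140.1 and 143 CPM. Within digit 2 they fell, at 241, 113 and 75.4 CPM. Both comparisons with vehicle use the same 7 vehicle hearts.

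**Figure D1:**
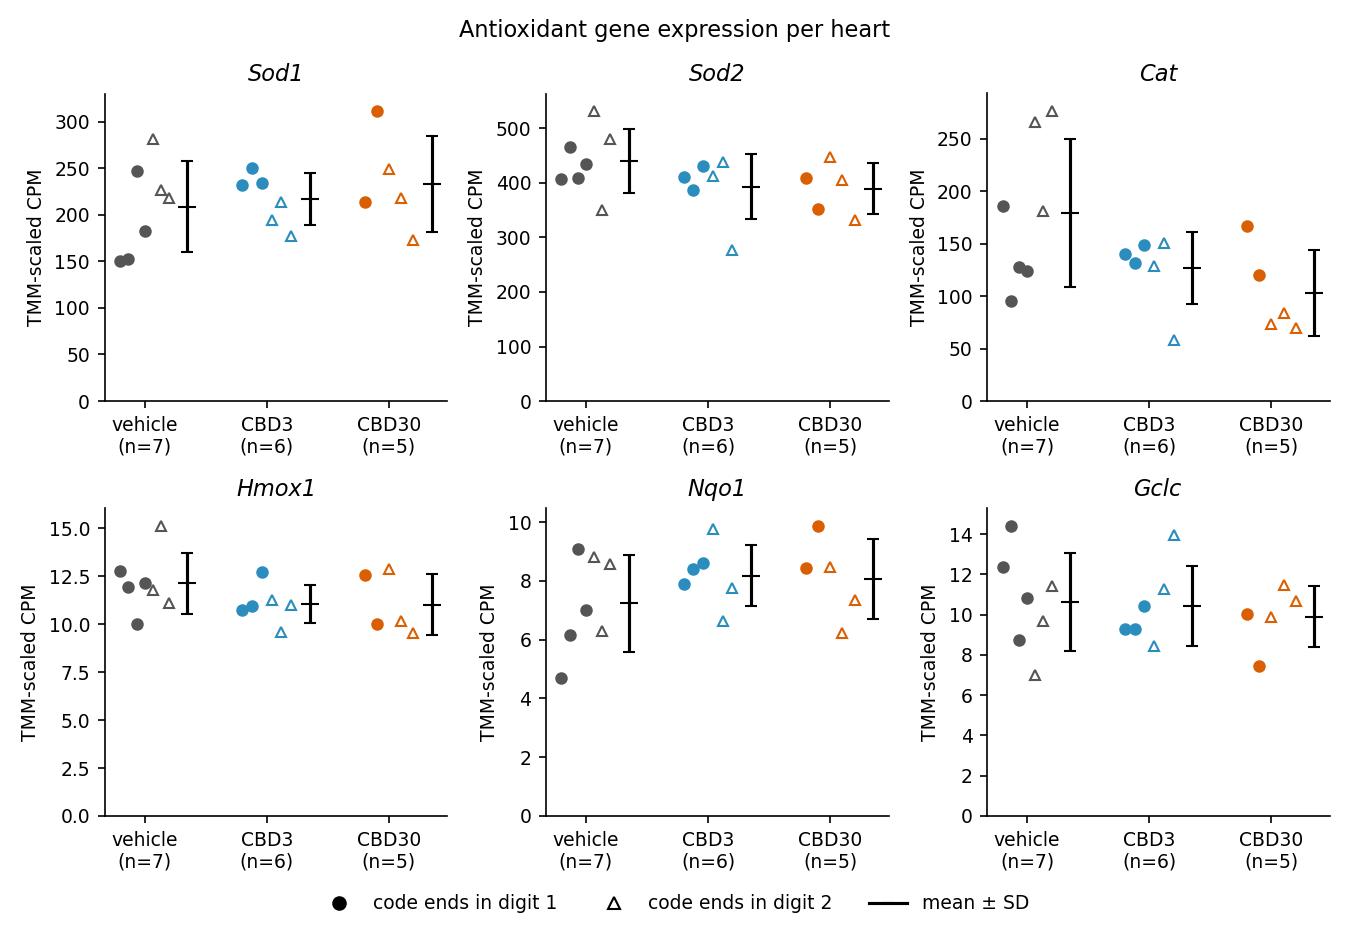
Expression of the 6 genes in each heart, as TMM-scaled CPM on axes that start at 0, by dose group, with black bars for the mean ± SD. Filled circles are samples whose code ends in digit 1 and open triangles those ending in digit 2. All 6 genes overlap between groups, and Cat shows the widest scatter relative to its level, with the highest heart 4.72 times the lowest.

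The estimates for Cat were unequal in the sets of codes. In the digit 2 samples the 3 CBD30 hearts had 73.0, 83.6 and 69.6 CPM, against 266, 182 and 277 CPM in the 3 vehicle hearts. The CBD3 hearts of that set had 129, 150.3 and 58.6 CPM, so that every heart of both doses lay below every vehicle heart. Ranges lay apart in that direction for 6.37% of all genes for CBD30 and 5.33% for CBD3. Fitted on the digit 2 samples alone, the log2 fold change was -1.68 ± 0.30 for CBD30 (SE, edgeR unadjusted p = 0.00018, adjusted p = 0.488) and -1.10 ± 0.30 for CBD3 (unadjusted p = 0.00358, adjusted p = 1.0). Among all genes tested in those samples, 3.33% were lower in CBD30 and 2.14% lower in CBD3 at an unadjusted p under 0.05.

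In the digit 1 samples the groups overlapped for Cat. The CBD30 hearts had 166 and 120.3 CPM, against 186, 95.2, 128 and 124 CPM in the vehicle hearts, and the CBD3 hearts had 140.2, 132 and 148 CPM. Fitted on the digit 1 samples alone, the log2 fold change over vehicle was 0.12 ± 0.23 for CBD30 and 0.076 ± 0.20 for CBD3 (SE, edgeR adjusted p = 0.742 and 0.855). In that set 24.2% of all genes for CBD30 and 12.7% for CBD3 had an unadjusted p under 0.05 in either direction (edgeR). The digit 2 shares at that p count lower genes alone and are not comparable with these. Ranges in digit 1 lay apart with the dose lower for 9.45% and 4%. Tested directly, the CBD30 difference was 1.78 ± 0.41 higher on the log2 scale in digit 1 than in digit 2 (SE, edgeR interaction, unadjusted p = 0.000431, adjusted p = 0.376). For CBD3 it was 1.17 ± 0.39 higher (unadjusted p = 0.00766, adjusted p = 0.532). Neither passed the adjusted threshold, which 0.00588% of genes passed for CBD30 and 0% for CBD3, and the sets differ in library total and in the number of hearts per group. The vehicle hearts averaged 133 ± 38.2 CPM in digit 1 and 241 ± 52.0 CPM in digit 2 (SD, n = 4 and 3), a difference that was not tested.

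**Figure D2:**
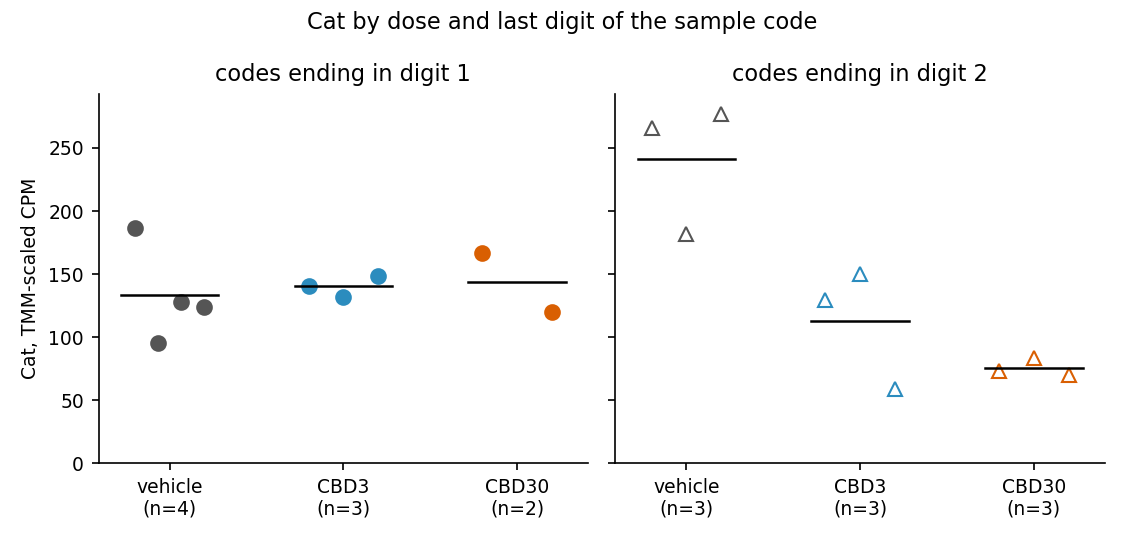
Cat in TMM-scaled CPM by dose group, shown separately for samples whose code ends in digit 1 (left) and digit 2 (right), with 1 point per heart and a line at each mean. In digit 2 the CBD30 hearts sit at 69.6 to 83.6 CPM, below vehicle hearts at 182 to 277 CPM, and in digit 1 the groups overlap.

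The scatter of Cat between hearts of a group, with both code digits pooled, was large for its level. The SD of log2 CPM within groups was 0.55, against a median of 0.24 over the 13527 genes that averaged 1 CPM or more. A larger SD was found for 6.77% of those 13527 genes, and for 1.28% of the 1641 genes within 1 log2 unit of its level. The corresponding SDs were 0.29 for Sod1, 0.21 for Sod2, 0.29 for Gclc, 0.28 for Nqo1 and 0.17 for Hmox1. Of the 13527 genes 76.9% had a larger SD than Hmox1, as had 75.9% of the 4754 genes near its level. Hmox1 was thus the steadiest of the 6 genes across hearts. These SDs include differences between the digits. For Cat the SD of CPM in vehicle hearts was 28.7% of the mean in digit 1 and 21.6% in digit 2, against 39.3% pooled. In CBD3 hearts it was 5.90% and 42.6%, against 27.1%. In CBD30 hearts it was 22.8% and 9.66%, against 39.9%.

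**Figure D3:**
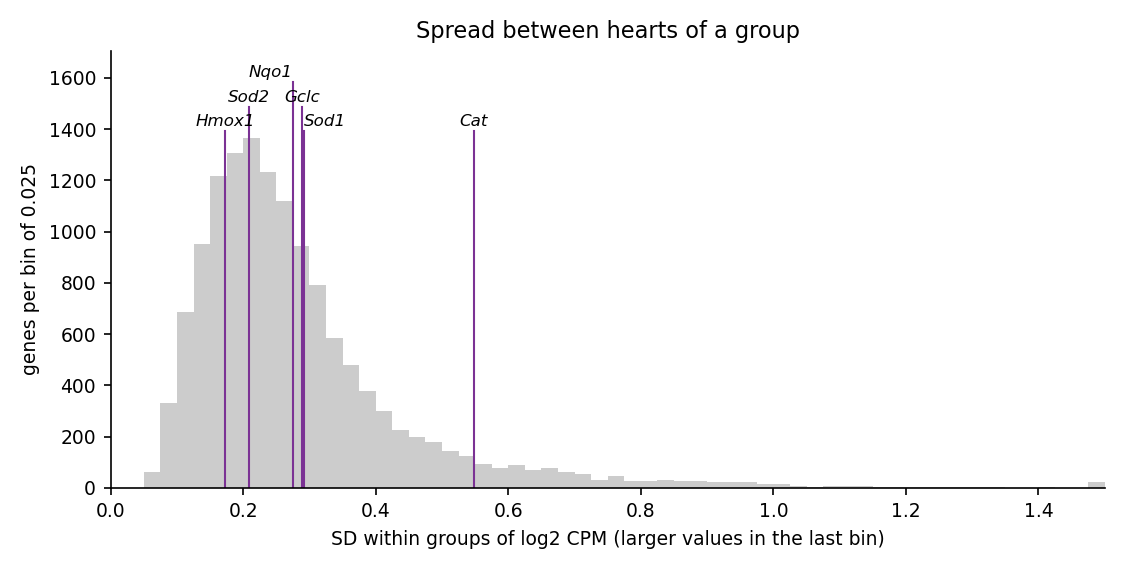
Grey bars give the number of genes (of 13527 that averaged 1 CPM or more) in bins of the SD of log2 CPM within groups, with values above the axis limit placed in the last bin. Vertical lines mark the 6 antioxidant genes: Cat lies in the upper tail at 0.55, and the others lie between 0.17 and 0.29. Hearts of both code digits are pooled within each group.

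Gclc, the catalytic subunit of the enzyme that limits glutathione synthesis, had 7.01 CPM at the lowest, 10.8 at the median and 14.4 at the highest in vehicle hearts. CBD3 hearts had 8.44, 9.87 and 13.9 CPM, and the 5 CBD30 hearts had 10.1, 7.46, 9.86, 11.5 and 10.7 CPM. All CBD30 hearts lay within the range of the vehicle hearts. Gclc averaged 9.91 ± 1.51 CPM in CBD30 hearts and 10.6 ± 2.43 CPM in vehicle hearts (SD, n = 5 and 7), with -0.10 ± 0.16 as the log2 fold change (SE, edgeR adjusted p = 0.754). The log2 fold change of CBD3 over vehicle was -0.028 ± 0.15 (SE, edgeR adjusted p = 0.946), with a 95% interval of -0.35 to 0.29. In the model with dose and digit the estimates had opposite signs, with log2 fold changes for CBD30 of -0.40 ± 0.23 in digit 1 and 0.19 ± 0.22 in digit 2 (SE, edgeR interaction, unadjusted p = 0.0796, adjusted p = 0.381). For CBD3 they were -0.26 ± 0.20 in digit 1 and 0.26 ± 0.22 in digit 2 (SE, unadjusted p = 0.0959, adjusted p = 0.536).

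Nqo1, the quinone reductase, had 4.69 CPM at the lowest, 7.02 at the median and 9.10 at the highest in vehicle hearts, and 6.65, 8.15 and 9.78 CPM in CBD3 hearts. The 5 CBD30 hearts had 8.43, 9.87, 8.46, 6.24 and 7.36 CPM. The 2 lowest values were those of vehicle hearts and the highest that of CBD30 replicate 2, with the ranges overlapping. Nqo1 averaged 8.07 ± 1.36 CPM in CBD30 hearts and 7.23 ± 1.65 CPM in vehicle hearts (SD, n = 5 and 7), and the log2 fold change was 0.16 ± 0.15 (SE, edgeR adjusted p = 0.596). For CBD3 over vehicle the log2 fold change was 0.18 ± 0.15 (SE, edgeR adjusted p = 0.622). For CBD30 the model with dose and digit gave 0.44 ± 0.22 in digit 1 and -0.10 ± 0.22 in digit 2 (SE), a difference with an unadjusted p of 0.103 and an adjusted p of 0.397 (edgeR interaction). For CBD3 it gave 0.30 ± 0.20 in digit 1 and 0.033 ± 0.22 in digit 2 (SE, adjusted p = 0.711).

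Hmox1, the haem oxygenase induced by oxidants and haem, had 10.02 CPM at the lowest, 11.9 at the median and 15.1 at the highest in vehicle hearts. CBD3 hearts had 9.62, 10.997 and 12.7 CPM, and the 5 CBD30 hearts had 12.6, 9.99, 12.9, 10.2 and 9.53 CPM. The highest heart was vehicle replicate 6, and the groups overlapped. Hmox1 averaged 11.03 ± 1.58 CPM in CBD30 hearts and 12.1 ± 1.59 CPM in vehicle hearts (SD, n = 5 and 7), which is -0.14 ± 0.11 on the log2 scale (SE, edgeR adjusted p = 0.524). The fold of CBD30 over vehicle was 0.909 with a 95% interval of 0.777 to 1.07, the narrowest of the 6 genes. For CBD3 over vehicle the log2 fold change was -0.13 ± 0.10 (SE, edgeR adjusted p = 0.606). Within the sets of codes it was -0.055 ± 0.17 in digit 1 and -0.22 ± 0.16 in digit 2 for CBD30, and -0.029 ± 0.15 in digit 1 and -0.25 ± 0.16 in digit 2 for CBD3 (SE, edgeR interaction, adjusted p = 0.704 and 0.676).

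Across the 6 genes, 0 passed an adjusted p of 0.05 in any of the comparisons with edgeR, and the same was true of 0% of the 17009 genes in each. DESeq2, which called 0.55% of 24347 genes for CBD30 against vehicle, 0.078% for CBD3 against vehicle and 0.00411% between the doses, called none of the 6 in any comparison either. At an unadjusted p under 0.05, 1 of the 6 genes (Cat, lower) was reached for CBD30 against vehicle, where 16.4% of all genes were in either direction and 7.31% lower, and 0 of the 6 for CBD3 against vehicle, where 8.92% were. Between the doses 0 of the 6 were reached, where 1.73% of all genes were. The groups did not separate for any of the 6 genes, against 0.253% of genes higher and 0.376% lower without overlap for CBD30 against vehicle, 0.118% and 0.0764% for CBD3 against vehicle, and 0.0647% and 0.153% for CBD30 against CBD3. The median log2 fold change of the 6 genes was -0.12 for CBD30 and -0.080 for CBD3 against vehicle, beside medians of -0.021 and -0.020 over all genes, with 2 of the 6 above 0 in each, as were 46.8% and 46.6% of all genes. Between the doses it was -0.015, beside 0.010 over all genes, with 1 of the 6 above 0, as were 53.1% of all genes.

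The doses did not differ beyond the spread for any of the 6 genes. The log2 fold changes of CBD30 over CBD3 were 0.10 ± 0.16 for Sod1, -0.011 ± 0.12 for Sod2, -0.076 ± 0.17 for Gclc, -0.019 ± 0.16 for Nqo1 and -0.0037 ± 0.11 for Hmox1 (SE), beside the -0.30 ± 0.29 of Cat. All had an edgeR adjusted p of 0.999. The interval was narrowest for Hmox1, at -0.24 to 0.23.

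**Figure D4:**
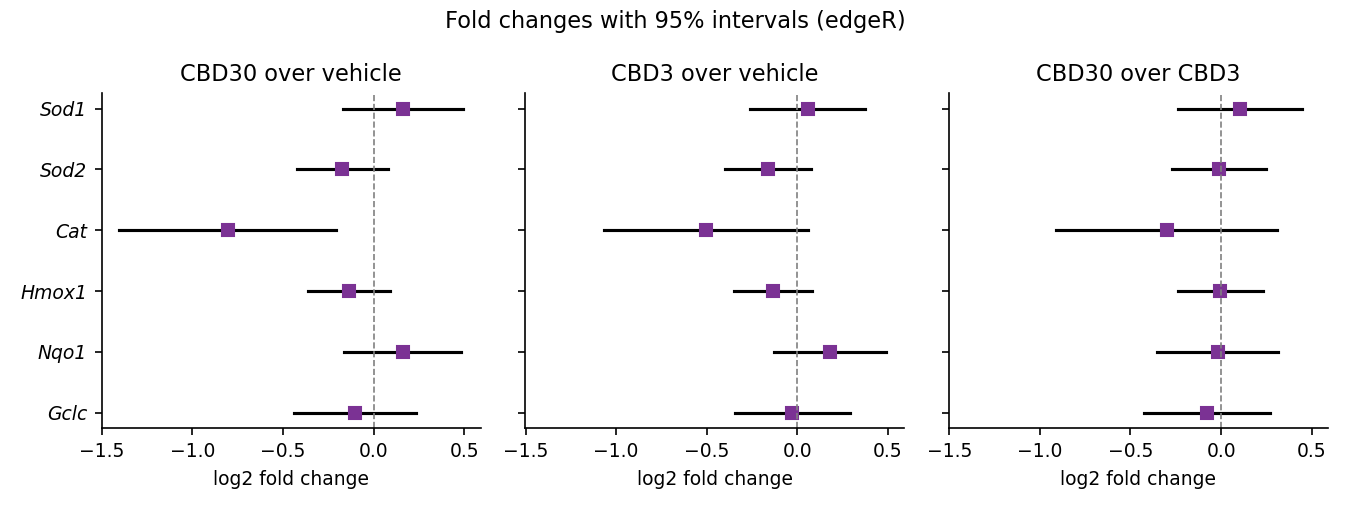
Log2 fold changes of the 6 genes (squares) with 95% intervals (lines) from the edgeR fit, for CBD30 over vehicle, CBD3 over vehicle and CBD30 over CBD3. Cat in CBD30 over vehicle, at -0.81, is the only one whose interval lies apart from 0, and it did not pass the adjusted threshold.

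The genes were then compared with each other across the 18 hearts, in 15 pairs with p-values adjusted over those pairs. Hearts with more Sod1 had less Gclc, the clearest relation (Pearson r = -0.80, permutation p = 6e-05, adjusted p = 0.0009; Spearman rho = -0.75, permutation p = 0.00053, adjusted p = 0.00405). Without the 2 hearts farthest from the median of Sod1 r was -0.75 (permutation p = 0.00077, adjusted p = 0.0115), and with values centred on the group means it was -0.80. Within the digit 1 samples r was -0.95 (exact permutation p = 0.000154, n = 9), and within the digit 2 samples it was -0.64 (exact permutation p = 0.0633, n = 9), which did not pass. The direction was the same in both sets. Among 13526 other genes, with values centred on the group means, the lowest r was -0.95 with Sod1 and -0.93 with Gclc. How many pairs of other genes reach an r of such size was not counted.

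Nqo1 was also lower where Gclc was higher (Pearson r = -0.65, permutation p = 0.00373, adjusted p = 0.0186; Spearman rho = -0.75, permutation p = 0.00054, adjusted p = 0.00405), and higher where Sod1 was higher (Pearson r = 0.67, permutation p = 0.00219, adjusted p = 0.0164; Spearman rho = 0.64, permutation p = 0.00464, adjusted p = 0.0232). Without the 2 hearts farthest from the median of Nqo1, r with Gclc was -0.57 (permutation p = 0.0192, adjusted p = 0.144) and r with Sod1 was 0.44 (permutation p = 0.087, adjusted p = 0.326), so that neither passed the adjusted threshold. With counts scaled by library size only, r was -0.54 with Gclc (permutation adjusted p = 0.0942) and 0.35 with Sod1 (permutation adjusted p = 0.343), again short of it. Within the digit 1 samples r was -0.82 with Gclc and 0.92 with Sod1, and within the digit 2 samples it was -0.45 with Gclc and 0.11 with Sod1 (exact permutation p = 0.00686, 0.000138, 0.226 and 0.776, n = 9 each). Gclc and Nqo1 are both textbook NRF2 targets, and any part of NRF2 in the relation between them was not tested.

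Cat and Sod2 were higher in the same hearts by Pearson's r (0.59, permutation p = 0.0105, adjusted p = 0.0392) but not by Spearman's rho (0.39, permutation p = 0.111, adjusted p = 0.418). The relation rested on the hearts farthest from the median of Cat, without which r was 0.33 (permutation p = 0.213). It did not hold within both sets of codes, with -0.24 in digit 1 and 0.69 in digit 2 (exact permutation p = 0.546 and 0.0406, n = 9 each). The other 11 pairs did not pass, and none of the 5 pairs with Hmox1 did.

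Sod1, Nqo1 and Gclc also moved with measures of the whole library, in 12 relations looked at after the data had been seen. The first principal component, which is built from all genes, these included, had a Pearson r of 0.86 with Sod1 (permutation p = 3e-05, adjusted p = 0.00024; Spearman rho = 0.81, permutation p = 8e-05, adjusted p = 0.00066). Its r was 0.77 with Nqo1 (permutation p = 0.00017, adjusted p = 0.00068; Spearman rho = 0.69, permutation p = 0.00217, adjusted p = 0.00651) and -0.71 with Gclc (permutation p = 0.00142, adjusted p = 0.00341; Spearman rho = -0.74, permutation p = 0.00055, adjusted p = 0.0022). Without the 2 hearts farthest from the median score r was 0.75 for Sod1, 0.60 for Nqo1 and -0.56 for Gclc. These relations held within digit 1 (r = 0.99, 0.91 and -0.97, exact permutation p = 4.68e-05, 0.000402 and 5.51e-06, n = 9) but did not pass within digit 2 (r = 0.39, 0.31 and -0.29, exact permutation p = 0.289, 0.398 and 0.455, n = 9). Cat had an r of -0.016 with that component (permutation p = 0.951, adjusted p = 0.951), and neither Sod2 nor Hmox1 passed over the 18 hearts. Within digit 1 the r of Sod2 and Hmox1 was -0.77 and -0.70 (exact permutation p = 0.0135 and 0.0408). Within digit 2 it was -0.045 and 0.53 (exact permutation p = 0.909 and 0.14). Over the 18 hearts, the share of counts in the 10 most abundant genes had a Pearson r of 0.81 with Sod1 (permutation p = 4e-05, adjusted p = 0.00024; Spearman rho = 0.81, permutation p = 0.00011, adjusted p = 0.00066) and of -0.70 with Gclc (permutation p = 0.00121, adjusted p = 0.00341; Spearman rho = -0.60, permutation p = 0.0103, adjusted p = 0.0206). Without the 2 hearts farthest from the median share these were 0.76 and -0.48. Within digit 1 they were 0.92 and -0.92 (exact permutation p = 0.000479 and 0.000383, n = 9), and within digit 2 they were 0.76 and -0.52 (exact permutation p = 0.0168 and 0.152, n = 9). Nqo1 had an r of 0.52 with that share, which did not pass by Pearson's r (permutation p = 0.0266, adjusted p = 0.0531; Spearman rho = 0.62, permutation p = 0.00705, adjusted p = 0.0169), 0.82 within digit 1 and 0.20 within digit 2, and 0.46 without the 2 hearts. Cat did not pass with that share (r = 0.48, permutation adjusted p = 0.0728), with 0.020 within digit 1 and 0.66 within digit 2 (exact permutation p = 0.959 and 0.0446). Sod2 did not pass either (r = 0.44, permutation adjusted p = 0.0973), with -0.66 and 0.84 (exact permutation p = 0.0497 and 0.0051). Hmox1 had -0.31 (permutation adjusted p = 0.278), with -0.76 and -0.061 (exact permutation p = 0.0237 and 0.868). The part of library composition in the relations between genes and in the differences of Cat was not tested.

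**Figure D5:**
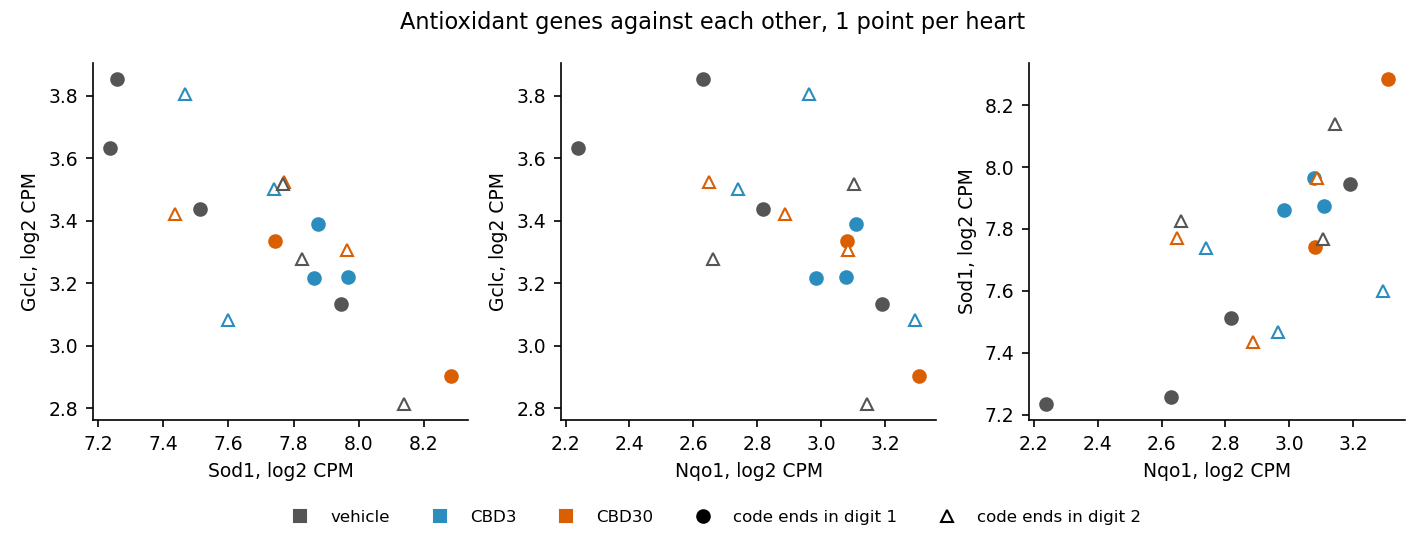
Log2 CPM of Sod1 and Gclc, Nqo1 and Gclc, and Nqo1 and Sod1, with 1 point per heart, coloured by group and shaped by the last digit of the code. Gclc is lower where Sod1 is higher over the 18 hearts (r = -0.80), and the points of digit 1 lie closer to a line than those of digit 2.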

How the data were processed

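RNA of flash frozen hearts was extracted with a phenol reagent and messenger RNA libraries were made with a stranded kit, per the labels' protocols. For each Ensembl gene and sample the authors deposited a raw count, a whole number. Per the submitters' processing notes, featureCounts, edgeR and mRatBN7.2 were used, with no version or role stated. Aligner, annotation and strand setting: not given in the sources used here.

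Low genes were removed with filterByExpr (groups as the design, at least 10 counts, at least 15 in total), which left 17009 of 30560. After TMM scaling, edgeR 4.0.16 (R 4.3.3) fitted the 18 samples together with its quasi-likelihood method, with Benjamini-Hochberg adjustment over all tested genes and a threshold of 0.05. Standard errors came from the F statistic, and the prior count for log2 CPM was 2. Correlations used 100000 resamples, or all orders for 9 samples. The steps were tested on simulated data. DESeq2 1.42.0 and limma 3.58.1 were alternatives, with other scaling, filters, samples, the code digit and a replicate block. The 4 vehicle samples whose codes stand in the labels of several replicates were used without a number. In each of the 46 pairs of samples of 1 group, counts differed by more than sampling noise. The genes named are the 6 of the selection, and they, the lists and the tests were chosen with earlier results of these data known. The planned pathway and marker lists were not used, since 0 of 30560 IDs could be paired with a symbol. The fits within 1 digit and the interaction of dose and digit were added after the data were seen.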

Additional observations from a re-analysis of the deposited data

Results flagged for a closer look

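In 18 sets of 5 to 7 samples (6 genes, 3 groups), 2 held a sample far from the others of its group, where chance gives about 1 in 20 sets. Both came from CBD3 replicate 6. Its Cat was 58.6 CPM, with the nearest other CBD3 heart at 129 CPM, and its Sod2 was 277 CPM, with the nearest other at 386 CPM. The same heart had the highest Gclc of its group, 13.9 CPM. Its library held 67223489 counts, within the range of its group, and 25.3% of them were in the 10 most abundant genes, the lowest share of the CBD3 libraries. For CBD3 over vehicle, the log2 fold change without it was -0.36 for Cat, against -0.51 with it, and -0.080 for Sod2, against -0.16 with it.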

How the results depend on the processing

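For the changes listed here the cause was not tested. Genes called with edgeR or limma numbered 0 in the 3 comparisons under each other scaling, filter, covariate and choice of samples run, except that 1 was called between the doses when vehicle was left out of the fit, and except for some omissions of 1 sample. DESeq2 called 134 for CBD30 and 19 for CBD3 against vehicle and 1 between doses, or 160, 8 and 1 on the genes tested with edgeR (chosen after seeing the data). Leaving out each sample gave 0 to 267 called genes for CBD30 (267 when the vehicle heart coded 3.1 was omitted and 1 when CBD30 replicate 1 was) and 0 to 0 for the others. None of the 6 genes passed the adjusted threshold in any fit run.

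Log2 fold changes over the 18 omissions, for CBD30 against vehicle, ranged from -1.05 to -0.67 for Cat, -0.20 to -0.076 for Hmox1, -0.23 to -0.12 for Sod2, 0.078 to 0.24 for Nqo1, 0.036 to 0.25 for Sod1 and -0.18 to -0.016 for Gclc. For CBD3 against vehicle they were -0.61 to -0.36, -0.18 to -0.073, -0.21 to -0.080, 0.096 to 0.24, -0.0079 to 0.14 and -0.13 to 0.060 in the same order. Between doses they were -0.55 to -0.19, -0.066 to 0.044, -0.094 to 0.041, -0.10 to 0.062, -0.022 to 0.20 and -0.13 to 0.024. For CBD3 against vehicle the sign turned in 2 of the 18 omissions for Sod1 and in 5 for Gclc. Between doses it turned in 5 for Hmox1, 6 for Sod2, 3 for Nqo1, 1 for Sod1 and 2 for Gclc.

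In the digit 1 samples the log2 fold change turned sign for Cat (0.12 for CBD30, 0.076 for CBD3, 0.047 between doses) and for Nqo1 between doses (0.16). In the digit 2 samples it turned for Nqo1 (-0.10), Sod1 (-0.18) and Gclc (0.19) with CBD30, for Sod1 (-0.31) and Gclc (0.26) with CBD3, and for Hmox1 (0.030) and Sod2 (0.071) between doses. These fits hold fewer samples.

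The 8 pairs of same-numbered samples of different groups had correlations of -0.31 to 0.47 in their deviations, with a median of 0.043. The median of other pairs was -0.046. So few pairs cannot settle whether the replicate numbers pair the samples. With the replicate block over the 14 numbered samples, the log2 fold change of Cat was -1.82 for CBD30 and -1.32 for CBD3 against vehicle. The numbered vehicle hearts were replicates 5, 6 and 7 alone, and no other group has a replicate 7. The vehicle side of that fit thus rested on replicates 5 and 6, of which CBD30 shares only number 5. The sign turned for Nqo1 (-0.099), Sod1 (-0.44) and Gclc (0.62) with CBD30, for Nqo1 (-0.027), Sod1 (-0.46) and Gclc (0.60) with CBD3, and for Gclc between doses (0.023). The same 14 samples without the block (chosen after seeing the data) gave -1.22 and -0.92 for Cat, and turned Sod1 (-0.043, -0.15) and Gclc (0.089, 0.17). In both fits all vehicle hearts had codes ending in digit 2, while CBD3 and CBD30 kept hearts of both digits. The 4 vehicle hearts left out, all of digit 1, averaged 133 CPM for Cat, against 241 CPM for the 3 kept. Dose and digit thus cannot be fully told apart in either fit.

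Of the 15 pairs of genes, 4 passed in all, 0 in the digit 2 samples, 1 without the 2 farthest hearts and 1 with library size only. The share of pairs among all genes that would pass was not computed. In the digit 1 samples Sod2 and Gclc, a pair outside those 4, passed (r = 0.83, exact permutation adjusted p = 0.03). Pearson's r no longer passed for Cat and Sod2 with centred values (0.50), without the 2 farthest (0.33), with library size only (0.54) or in digit 2 (0.69), and was -0.24 in digit 1. For Nqo1 and Sod1 it was 0.11 in digit 2, 0.44 without the 2 and 0.35 with library size only, and for Nqo1 and Gclc -0.45, -0.57 and -0.54. For Sod1 and Gclc it was -0.64 in digit 2.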

Other observations

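For each of the 6 genes the most similar other gene was sought over the 18 hearts, by Pearson's r of log2 CPM centred on the group means, among 13526 genes. The highest r was 0.99 for Sod1, 0.97 for Gclc, 0.97 for Sod2, 0.96 for Nqo1, 0.95 for Cat and 0.84 for Hmox1, in each case with a gene outside the 6 whose ID is not paired with a symbol in the sources used here. Sod1 had an r above 0.8 with 915 genes, Nqo1 with 469, Sod2 with 203, Gclc with 168, Cat with 23 and Hmox1 with 3. The lowest r was -0.95 for Sod1, -0.93 for Gclc, -0.93 for Nqo1, -0.79 for Hmox1, -0.78 for Cat and -0.74 for Sod2. The genes are not independent, and these values describe the hearts measured.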
